A study of Homo sapiens with 18 samples.

Results

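The transcripts described here belong to 7 genes of DNA replication. They were chosen by transcript identifier, with earlier results of these data known. The genes are 5 subunits of the MCM helicase (MCM2, MCM4, MCM5, MCM6 and MCM7), the sliding clamp PCNA, and thymidylate synthase (TYMS). All 9 listed identifiers were found among the 35246 Ensembl transcripts of the deposited table, with 2 transcripts each for MCM7 and PCNA and 1 for each other gene. The table carries no gene names, so the symbols are those given with the list. RNA was sequenced from 22RV1, an established human prostate cancer cell line known for carrying androgen receptor splice variants beside the full-length receptor. The 3 vehicle libraries came from cells given the solvent DMSO and the 3 UT-143 libraries from cells given 10 µM UT-143, both for 20 to 24 hours in RPMI medium with serum. The study's title places the compound among irreversible covalent inhibitors directed at cysteines of the androgen receptor and its splice variants, and the comparison addresses how the RNA of these cells differs once the compound is given. Nothing in the labels ties the numbered libraries to separate cultures. The p-values therefore reflect only how far these libraries differ among themselves, which may be a technical spread. The 12 ATAC-seq samples of the series were not analysed here.

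The MCM proteins form a ring-shaped helicase that is loaded onto replication origins before S phase and unwinds the DNA ahead of the fork. PCNA is the ring that holds DNA polymerases on the template, and thymidylate synthase makes the thymidine nucleotide that DNA synthesis needs. All 7 genes are textbook targets of the E2F transcription factors, whose activity is released when cyclin-dependent kinases phosphorylate the retinoblastoma protein, and they serve widely as markers of proliferating cells. In prostate cancer cells, androgen receptor signalling is known to promote entry into S phase.

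E2F sites are the sequence feature these promoters are known for, so matches were likely in advance. The promoters are shown as background, and a link between E2F and the changes after UT-143 was not tested. RefSeq promoter windows (250 bases before to 50 bases after a transcription start, GRCh38.p14) were at hand for 5 of the 7 genes, not for MCM4 and MCM5. Capitals mark every match on either strand to 4 spellings of the E2F motif, TTTCGCGC, TTTGGCGC, TTTCCCGC and TTTGCCGC. The sequences are written 5′ to 3′ along the gene. Those of MCM6 (chr2:135876444-135876633, minus strand), MCM7 (chr7:100101398-100101587, minus strand), PCNA (chr20:5126623-5126812, minus strand) and TYMS (chr18:657463-657652, plus strand) are the 190 bases that end just before the start, and that of MCM2 (chr3:127598404-127598433, plus strand) is 30 bases around its match.
MCM2: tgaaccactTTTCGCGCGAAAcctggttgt
MCM6: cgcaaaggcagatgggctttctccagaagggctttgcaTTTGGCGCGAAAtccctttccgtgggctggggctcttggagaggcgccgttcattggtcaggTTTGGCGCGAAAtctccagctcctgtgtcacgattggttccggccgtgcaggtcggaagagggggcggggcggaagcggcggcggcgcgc
MCM7: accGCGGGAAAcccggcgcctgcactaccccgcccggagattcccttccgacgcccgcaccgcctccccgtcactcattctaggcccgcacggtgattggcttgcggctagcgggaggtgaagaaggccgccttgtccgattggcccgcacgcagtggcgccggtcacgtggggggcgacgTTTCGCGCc
PCNA: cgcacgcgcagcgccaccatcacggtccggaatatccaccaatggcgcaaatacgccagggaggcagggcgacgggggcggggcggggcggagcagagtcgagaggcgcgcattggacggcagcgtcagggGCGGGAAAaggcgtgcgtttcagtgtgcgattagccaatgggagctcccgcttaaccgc
TYMS: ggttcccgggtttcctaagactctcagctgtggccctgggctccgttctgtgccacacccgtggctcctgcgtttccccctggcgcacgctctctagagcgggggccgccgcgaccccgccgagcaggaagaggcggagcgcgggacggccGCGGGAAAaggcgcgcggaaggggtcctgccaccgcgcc

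The first listed start of each of the 5 genes had at least 1 E2F match in its window, where 3.31% of all 35116 windows had one. MCM6 had 4 matches, which form 2 palindrome-like sites of overlapping forward and reverse matches from -152 to -141 and from -90 to -79. MCM2 had 2 overlapping matches just downstream of the start, from 3 to 14. MCM7 had 1 match from -9 to -2 and another from -187 to -180, PCNA had 1 from -59 to -52, and TYMS had 1 from -39 to -32. The other 2 MCM7 starts and the other PCNA start listed by RefSeq had no match in their windows. The CCAAT box of NF-Y (CCAAT) was found in the first windows of MCM6, MCM7 and PCNA and in 34.6% of all windows. The Sp1 motif (GGGCGG) was found in the first windows of MCM2, MCM6, MCM7 and PCNA and in 45.0% of all windows. The E-box CACGTG was found in the first windows of MCM2 and MCM7 and in 7.26% of all windows. In PCNA the E2F match overlaps an Sp1 match, and in MCM7 the match next to the start overlaps a CCAAT box. A match describes the letters of the window, and binding was not measured here.

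**Figure D1:**
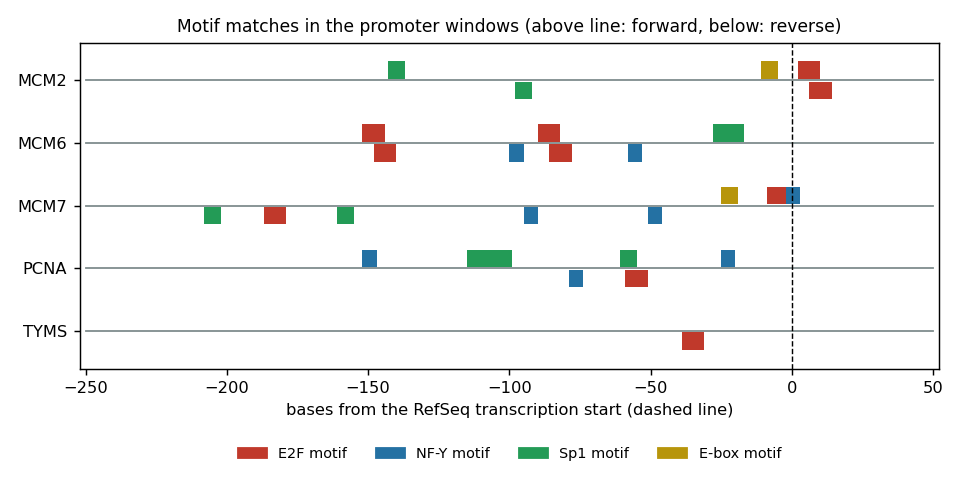
Positions of motif matches in the first RefSeq promoter window of 5 genes, with bases from the transcription start on the x axis, 1 line per gene, and boxes above or below the line for forward or reverse matches. E2F matches (red) lie at -152 to -79 in MCM6, at the start in MCM2, next to the start and at -187 in MCM7, and at -59 and -39 in PCNA and TYMS.

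UT-143 replicate 3 stood apart from the other libraries before any replication gene was considered, and results are therefore given with and without it. Over all transcripts its log2 values correlated at 0.888 and 0.895 with UT-143 replicates 1 and 2, which correlated at 0.993 with each other. Values are taken here as CPM, in which each library's reads are scaled to the same total, rounded by the authors to whole numbers. Their column totals were 889253 to 900414 CPM in the other 5 libraries against 923170 CPM for UT-143 replicate 3. No transcript with a total below 30 CPM over the 6 libraries is listed, so these totals need not be equal. The depth in reads is unknown. Neither the prostate markers of the line nor the other genes of the replication pathway (origin recognition, polymerases, clamp loader, ribonucleotide reductase) were analysed here, because none of the transcript identifiers matched the tables used for names.

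All 9 replication transcripts had lower values in every UT-143 library than in any vehicle library. Such a separation was seen in 22.3% of all 35246 transcripts in this direction. MCM4, MCM5, MCM6 and TYMS fell at an adjusted p under 0.05 with 6 libraries, so that 4 of the 9 transcripts passed where 2.08% of all transcripts were called lower (limma on log2(CPM + 1), Benjamini-Hochberg adjustment over all transcripts). MCM2 and both transcripts of MCM7 and PCNA did not pass in that fit. By gene, 4 of the 7 passed, as MCM7 and PCNA each enter the 9 transcripts with 2. Over the 9 transcripts the log2 change had a median of -0.62, beside -0.06 over all transcripts tested. Because the list was made with earlier results of these data known, these contrasts with all transcripts are descriptive only. Given that separation, none of the 9 could be called higher at this threshold, where 1.29% of all transcripts were. Without UT-143 replicate 3 all 9 passed, where 14.6% of all transcripts were called lower and 8.65% higher. Without any 1 of the other 5 libraries none of the 9 passed, and neither did any other transcript (limma, adjusted p under 0.05). All 9 had an unadjusted p under 0.05 in each of those fits. Of all transcripts, 9.71%, 8.28%, 10.8%, 16.5% and 15.0% were lower at that level without vehicle replicate 1, 2 and 3 and without UT-143 replicate 1 and 2, in that order. Since whole cultures were measured, fewer replicating cells and less of each mRNA per cell cannot be told apart.

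**Figure D2:**
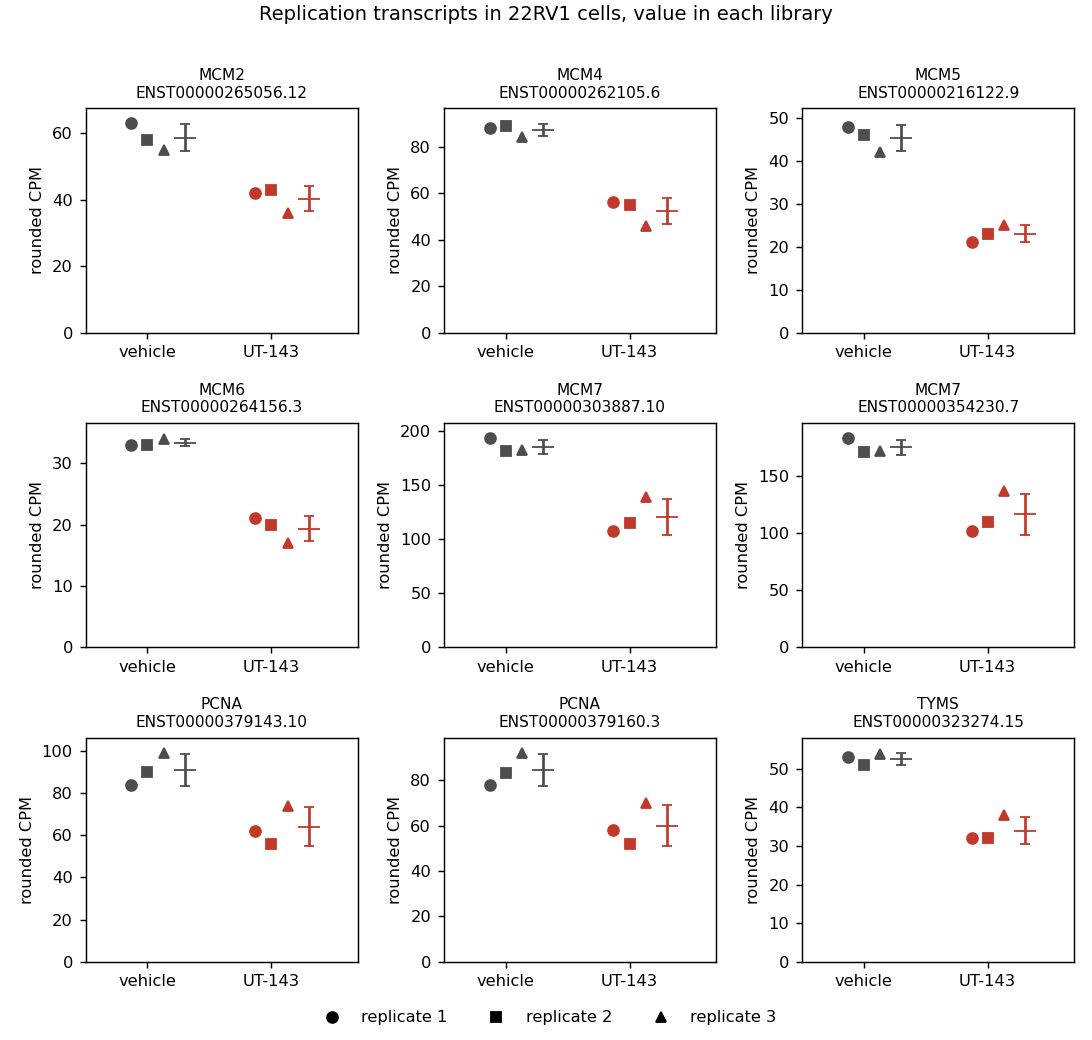
Rounded CPM (y axis, from 0) of the 9 transcripts in each of the 3 vehicle and 3 UT-143 libraries, with marker shapes for the replicate number and the mean and SD of each group at its right. No UT-143 value reaches a vehicle value in any panel, and the closest approach is 70 against 78 CPM in the second PCNA transcript.

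Among the helicase subunits MCM5 had the largest fall. MCM5 (22:35400140-35455031, transcript ENST00000216122.9) forms with MCM2 the gate through which DNA enters the ring. It was listed at 48, 46 and 42 CPM in vehicle replicates 1 to 3 and at 21, 23 and 25 CPM in UT-143 replicates 1 to 3. Every UT-143 library was thus at least 17 CPM below every vehicle library. The means were 45.3 ± 3.1 and 23.0 ± 2.0 CPM (SD, n = 3 each), and the log2 change was -0.95 (standard error 0.10, limma, adjusted p = 0.027). The fitted ratio of CPM + 1 was 0.52 with a 95% interval of 0.43 to 0.62. Leaving out UT-143 replicate 3 gave a log2 change of -1.01 (limma, adjusted p = 0.0068). Of all transcripts, 2.64% had a fall at least as large as with 6 libraries.

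MCM4 and MCM6 changed by similar amounts and had their lowest value in UT-143 replicate 3. MCM4 (8:47960941-47978160, ENST00000262105.6) is, with MCM6 and MCM7, part of the core of the ring that has helicase activity on its own. It had 88, 89 and 84 CPM in the vehicle libraries and 56, 55 and 46 CPM in the UT-143 libraries. The log2 change was -0.73 (standard error 0.11, limma, adjusted p = 0.033), a fitted ratio of 0.60 (95% interval 0.51 to 0.72). MCM6 (2:135839626-135876443, ENST00000264156.3), whose promoter carries the paired E2F matches shown above, had 33, 33 and 34 CPM in the vehicle libraries and 21, 20 and 17 CPM in the UT-143 libraries. Its vehicle values were the closest together of all the genes, within 1 CPM. The log2 change was -0.76 (standard error 0.10, limma, adjusted p = 0.030), a fitted ratio of 0.59 (95% interval 0.50 to 0.70). The log2 changes of MCM4 and MCM6 without UT-143 replicate 3 were -0.64 and -0.68 (limma, adjusted p = 0.0049 and 0.0040).

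MCM2 had a smaller difference. MCM2 (3:127598411-127622436, ENST00000265056.12) is the subunit that also binds histones at the fork. It was listed at 63, 58 and 55 CPM in the vehicle libraries and at 42, 43 and 36 CPM in the UT-143 libraries. The groups did not overlap, with 12 CPM between the lowest vehicle and the highest UT-143 value. The difference of -0.53 on the log2 scale (standard error 0.11) missed the threshold with 6 libraries (limma, adjusted p = 0.056). Without UT-143 replicate 3, in which MCM2 was lowest, it was -0.45 (standard error 0.07) and passed (limma, adjusted p = 0.022).

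MCM7 was listed as 2 transcripts whose values moved together, and they are counted as 1 gene. MCM7 (7:100092728-100101397) is also the host of the microRNA genes MIR25, MIR93 and MIR106B, which lie inside it. ENST00000303887.10 had 193, 181 and 182 CPM in the vehicle libraries and 107, 115 and 139 CPM in the UT-143 libraries. ENST00000354230.7 had 183, 171 and 172 CPM in the vehicle libraries and 102, 110 and 137 CPM in the UT-143 libraries. The second was lower than the first by 2 to 10 CPM in each library, and how reads shared by both were counted is not given in the sources used here. UT-143 replicate 3 was the highest of its group for both, yet 42 and 34 CPM below the lowest vehicle library. The differences of -0.63 (standard error 0.12, adjusted p = 0.052) and -0.60 (standard error 0.13, adjusted p = 0.064) missed the threshold with 6 libraries in limma. Without UT-143 replicate 3 they were -0.73 and -0.72, both with an adjusted p of 0.0066 (limma).

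PCNA had the smallest differences and the widest spread in the vehicle group. PCNA (20:5114953-5126622) was listed as ENST00000379143.10, with 84, 90 and 99 CPM in the vehicle libraries and 62, 56 and 74 CPM in the UT-143 libraries. ENST00000379160.3 had 78, 83 and 92 CPM in the vehicle libraries and 58, 52 and 70 CPM in the UT-143 libraries. The 2 transcripts differed by 4 to 7 CPM within a library, and they too are counted as 1 gene. Vehicle replicate 3 and UT-143 replicate 3 were the highest of their groups. The differences were -0.51 (standard error 0.13, adjusted p = 0.089) and -0.49 (standard error 0.14, adjusted p = 0.10) with 6 libraries (limma). Without UT-143 replicate 3 they were -0.62 and -0.61 and passed (limma, adjusted p = 0.022 and 0.024). After median-of-ratios scaling, which raises the values of UT-143 replicate 3, 8 of the 9 transcripts kept groups that do not overlap, and ENST00000379160.3 did not. Of all transcripts, 21.5% were separated in this direction after that scaling.

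TYMS, the target of fluorouracil in chemotherapy, fell by 0.62 on the log2 scale. TYMS (18:657653-673578, ENST00000323274.15) had 53, 51 and 54 CPM in the vehicle libraries and 32, 32 and 38 CPM in the UT-143 libraries. The UT-143 values lay at least 13 CPM below the vehicle values. The standard error was 0.10 (limma, adjusted p = 0.039), and the fitted ratio was 0.65 (95% interval 0.55 to 0.77). With UT-143 replicate 3 left out the log2 change was -0.70 (limma, adjusted p = 0.0040). After median-of-ratios scaling its adjusted p was 0.067, and the count of transcripts past the threshold was then 3 of 9, namely MCM4, MCM5 and MCM6, where 2.49% of all transcripts were called lower (limma). ENOSF1 and TYMSOS overlap TYMS in the RefSeq annotation, as AP4M1 overlaps MCM7 and PCNA-AS1 overlaps PCNA. Whether strand was used in counting is not given in the sources used here, so reads of such neighbours may be included.

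**Figure D3:**
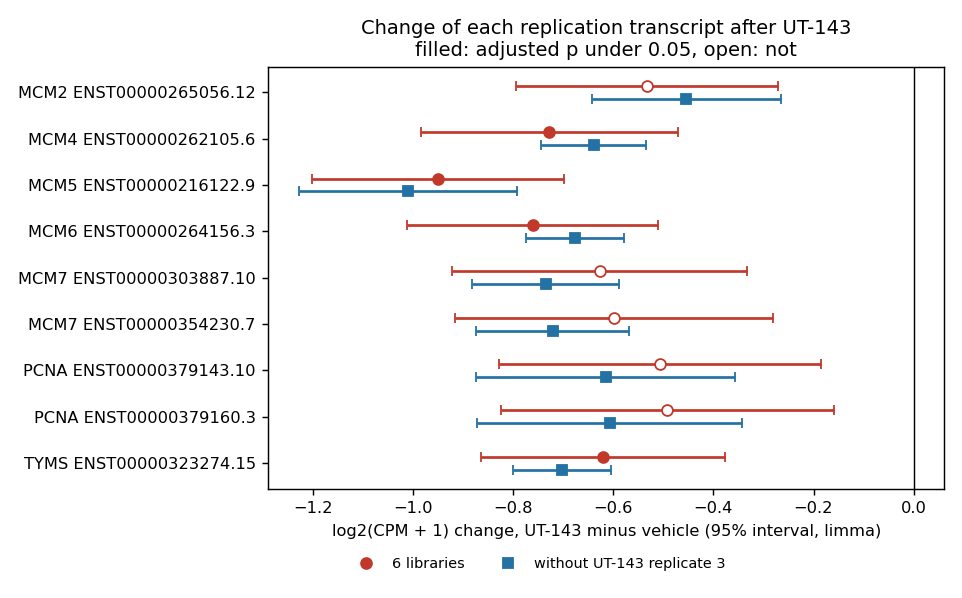
Change of each transcript on the log2(CPM + 1) scale, UT-143 minus vehicle (x axis), with 95% intervals from limma, for all 6 libraries (red circles) and without UT-143 replicate 3 (blue squares). Filled symbols passed an adjusted p of 0.05. All intervals lie below 0, and the estimates with 6 libraries run from -0.95 for MCM5 to -0.49 for the second PCNA transcript. The intervals are not adjusted for the number of transcripts tested. Of all transcripts, 26.4% had an unadjusted p under 0.05 with 6 libraries and 41.4% without UT-143 replicate 3, in either direction (limma).

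The genes differed in how UT-143 replicate 3 related to replicates 1 and 2. In MCM2, MCM4 and MCM6 replicate 3 was the lowest UT-143 library, with changes from the vehicle mean of -0.69, -0.90 and -0.93 on the log2 scale. In MCM5, MCM7, PCNA and TYMS it was the highest, with changes of -0.83, -0.41, -0.29 and -0.46. UT-143 replicates 1 and 2 ran from -0.44 for MCM2 in replicate 2 to -1.07 for MCM5 in replicate 1. They lay closer to each other than to replicate 3 in each gene except MCM5, whose 3 UT-143 values were evenly spaced in CPM. The median change over the 9 transcripts was -0.64, -0.68 and -0.46 in UT-143 replicates 1, 2 and 3, beside 0.00, -0.03 and -0.15 over all transcripts.

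**Figure D4:**
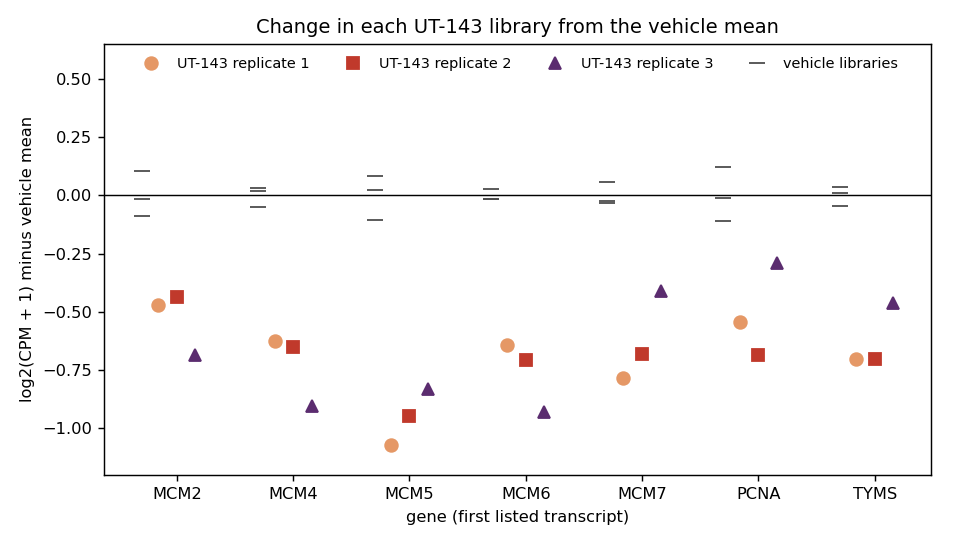
Difference of each library from the vehicle mean on the log2(CPM + 1) scale (y axis) for the first listed transcript of each gene (x axis). Grey dashes are the vehicle libraries and coloured symbols the UT-143 libraries. Replicate 3 (triangles) lies below the other UT-143 libraries in MCM2, MCM4 and MCM6 and above them in MCM5, MCM7, PCNA and TYMS.

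Summed over the 7 genes, with the first listed transcript of each, the level was 562, 548 and 550 CPM in the vehicle libraries and 341, 344 and 375 CPM in the UT-143 libraries. The means were 553 ± 7.6 and 353 ± 19 CPM (SD, n = 3 each). The 5 MCM genes made up 397 to 425 CPM of this in the vehicle libraries and 247 to 263 CPM in the UT-143 libraries. CPM is not scaled by transcript length, so levels are not compared between genes.

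Ratios within a library compare the changes of 2 genes with less dependence on the scaling. The added 1 and the rounding keep the scaling from cancelling exactly. In 6 of the 21 gene pairs the ratio (of CPM + 1) did not overlap between the groups, and 4 of these 6 involved MCM5. Over all pairs of transcripts in the table, 42.6% had ratios that did not overlap, so such pairs were no more frequent among the replication genes. The ratio of MCM2 to MCM5 was 1.26 to 1.31 in the vehicle libraries and 1.42 to 1.95 in the UT-143 libraries. MCM5 relative to PCNA was 0.43 to 0.58 in the vehicle libraries and 0.35 to 0.42 in the UT-143 libraries. MCM5 relative to MCM7 and to TYMS was also lower after UT-143, and MCM2 was higher relative to MCM4 and MCM6. With 3 libraries per group the 2-sided exact permutation test cannot go below p = 0.1, which these 6 pairs reached, and the smallest value adjusted over the 21 pairs was 0.35. A difference in response between the genes was therefore not established.

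The same limit holds for single transcripts, where each of the 9 had p = 0.1 in the 2-sided exact permutation test. In the authors' deposited table the ratio of UT-143 to vehicle means ran from 0.507 for MCM5 to 0.711 for PCNA ENST00000379160.3. The unadjusted p in the authors' deposited table was under 0.05 for all 9, from 9.46e-04 for MCM5 to 0.024 for that PCNA transcript. Of all transcripts that have a p-value in the authors' deposited table, 11.2% were lower at that level.

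The sizes of these changes were within the range of many other transcripts. A fall as large as that of MCM4 was found in 6.16% of all transcripts, as large as that of TYMS in 9.17%, and as large as that of the first PCNA transcript in 13.7%. The transcripts whose profile over the 6 libraries was most like the mean profile of the 7 genes, among 10908 with a mean of at least 20 CPM, were ENST00000519973.6 (53, 53 and 53 CPM in vehicle, 32, 33 and 34 CPM after UT-143) and ENST00000452089.5 (36, 36 and 36 CPM, then 29, 29 and 29 CPM). Pearson's r to that profile was 0.999 for both, over 6 libraries that form 2 groups, so it mainly reflects the difference between the groups. They are given by identifier, since their genes are not named in the table.

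**Figure D5:**
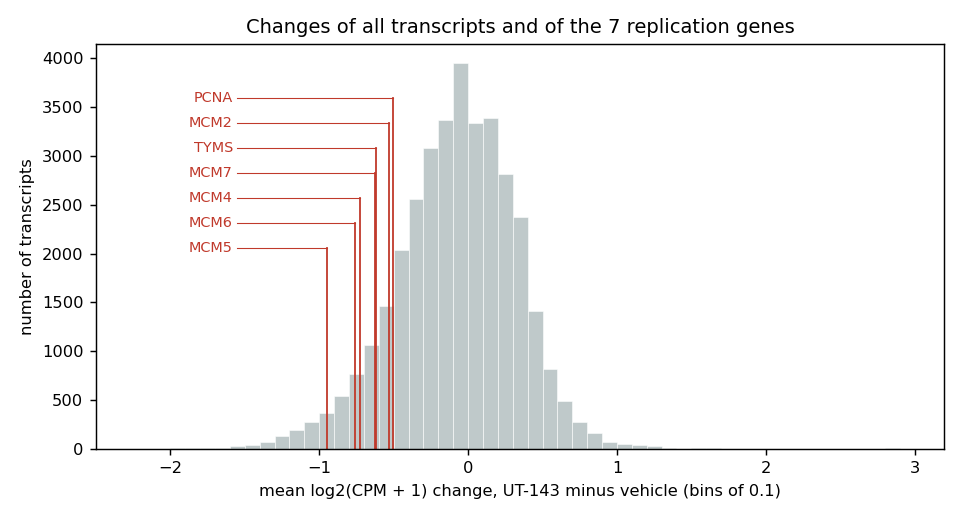
Number of transcripts (y axis) by mean change on the log2(CPM + 1) scale, UT-143 minus vehicle (x axis, bins of 0.1), for all 35246 transcripts, with red lines at the 7 genes (first listed transcript). The genes lie between -0.95 and -0.51, in the lower flank of a distribution with a median of -0.06.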

How the data were processed

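The authors deposited 1 table with a value per Ensembl transcript and RNA library. Its name calls the values normalized CPM, and they are whole numbers, so a deposited value is taken here as a score (rounded CPM), never as a raw count. Per the submitters' processing notes, FastQC, STAR 2.7.10a and HOMER were used with build hg38. The counting rule is not given in the sources used here. The lowest total of a transcript over the 6 libraries is 30 CPM, so rarer ones are not listed. Rounding by up to 0.5 CPM is at most 2.94% of any value printed for the 9 transcripts. The authors also deposited group means, a ratio of means (a ratio, or fold) and an unadjusted p-value.

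Groups came from sample titles, and columns were matched through the identifier in each description. All transcripts were fitted with limma 3.58.1 in R 4.3.3 on log2(CPM + 1), with group as the only term, a mean-variance trend and Benjamini-Hochberg adjustment at 0.05. No filter was applied. Fold changes on this scale are smaller than the true ones where values are low. Named were the 9 listed transcripts and the 2 most alike in profile. The members and lists were chosen with earlier results of these data known. Python 3.11.15 and Matplotlib 3.10.9 drew the figures. Alternatives were pseudocounts, filters, scalings, moderation, the replicate block and leaving out libraries. The fit without UT-143 replicate 3 after median-of-ratios scaling was added after seeing the data.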

Additional observations from a re-analysis of the deposited data

How the results depend on the processing

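All 9 transcripts stayed lower after UT-143 in the 18 alternative settings tried, with changes from -1.01 to -0.40 on the log2 scale. Only the settings that rescaled the libraries could have reversed a direction. Filters, moderation, the replicate block and the threshold leave each estimate unchanged. Every UT-143 value was below every vehicle value, so pseudocounts and leaving out 1 library could not reverse it either. The number past the threshold depended on the setting. It was 4 of 9 with 6 libraries, with 732 transcripts lower and 456 higher in all. Leaving out 1 library gave 0 to 9 of the 9, and 0 to 5158 lower and 0 to 3048 higher transcripts in all, with the highest counts when UT-143 replicate 3 was left out and 0 for each of the remaining choices (limma). Restricting the fit to means of 20 CPM or more gave 7 of 9 and 483 lower transcripts among 10908 tested, or 4.43%, against 2.08% with all transcripts. Quantile normalization called 9 of 9, with 1966 lower (5.58%) and 1409 higher, and median-of-ratios scaling called 3 of 9, with 879 lower (2.49%) and 696 higher. What caused these differences was not tested. At a threshold of 0.01, 0 of 9 remained past it, with 7 lower and 2 higher. Without UT-143 replicate 3 and with median-of-ratios scaling, 9 of 9 passed, with 5899 lower (16.7% of all transcripts) and 5297 higher. With the replicate block 0 of 9 passed, with 0 lower and 0 higher (limma). All 9 had an unadjusted p under 0.05 in that fit, as did 7941 transcripts in all, or 22.5%, counted in either direction (limma). Deviations from the group means correlated at -0.41, 0.52 and 0.04 between the libraries numbered 1, 2 and 3, and only number 2 had its best match in its own number. Deviations within a group sum to 0 and UT-143 replicate 3 stood apart, so this check cannot decide whether equal numbers mark pairs. The main fit did not take the numbers as pairs. Count models were not run, as the rounded values are not counts, and no filter was in the main setting to remove. The depth in reads is unknown.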
